A study of Mus musculus with 16 samples.

Results

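MHC class II-positive LSK cells are the 435 of 5157 kept cells, 8.44%, that held at least 3 UMIs of H2-Aa, H2-Ab1, H2-Eb1 and Cd74 together. LSK cells (Lin–Sca1+Kit+) comprise the stem cells of blood formation in bone marrow and the multipotent progenitors, and a UMI (unique molecular identifier) marks 1 captured transcript. The cells came from lethally irradiated CD45.1/CD45.2 C57BL/6J mice that had received fetal liver cells 4 weeks before, in equal parts from CD45.1 control and CD45.2 Regnase-1–/–Regnase-3–/– donors. All cells were sorted singly into plates and sequenced from mRNA 3' ends by MARS-seq, giving 16 libraries that the labels put in 1 group. Neither the donor nor the mouse of a cell is given, so control and double knockout cells could not be told apart, host cells were not set apart either, and no genotype was compared. The reference for all comparisons was the 3449 cells of the same libraries with 0 UMIs of the 4 genes, called zero cells here, and the 1273 cells with 1 or 2 UMIs were read separately.

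MHC class II molecules present peptides from the endosomal pathway to CD4+ T cells. H2-Aa and H2-Ab1 encode the alpha and beta chains of I-A, H2-Eb1 encodes the beta chain of I-E, and Cd74 encodes the invariant chain, which fills the peptide groove and guides new class II molecules to endosomes. In C57BL/6 mice the I-E alpha gene is defective and no I-E reaches the surface, and its pseudogene entry H2-Ea-ps held 0 UMIs in positive cells and 0 in zero cells. Dendritic cells, B cells and macrophages are the usual carriers of class II, and class II has also been described on part of the haematopoietic stem and progenitor cells of mice. Transcription of these genes needs the coactivator Ciita, which acts through the factors RFX, CREB and NF-Y bound at the X and Y boxes of their promoters, and interferon gamma induces Ciita.

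The promoter windows of H2-Aa and H2-Eb1 are shown because these are the elements through which chain genes are switched on together. In capitals stand the core of the X box, GCAAC, and the Y box, CTGATTGG. The H2-Aa window lies at chr17:34287847-34287924 on the minus strand, and the H2-Eb1 window at chr17:34305756-34305832 on the plus strand, both from RefSeq on GRCm38.p6 and upstream of the annotated start.
H2-Aa: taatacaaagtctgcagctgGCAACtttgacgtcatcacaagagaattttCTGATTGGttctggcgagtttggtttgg
H2-Eb1: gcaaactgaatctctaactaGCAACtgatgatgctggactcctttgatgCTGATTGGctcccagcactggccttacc
The Y box began 51 bases before the start in H2-Aa and 62 bases before it in H2-Eb1, with 25 and 24 bases between it and the X box core. Searched on both strands, CTGATTGG was present in the 250 bases before the start in 3.829% of 32851 promoter windows, and GCAAC in 29.88%. Both in this order on the sense strand, 20 to 40 bases apart, occurred in 17 windows, 0.05175% of all. Besides H2-Aa and H2-Eb1, these 17 included the class II genes H2-Eb2 and H2-Oa. Of the 3 H2 chain genes of the rule, 2 matched the promoter table. A match of letters describes the window and not binding.

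The 4 rule genes chose the cells, so their values describe the members and were not tested. In positive cells H2-Aa held 663 UMIs and was detected in 308 cells, 70.8%. H2-Ab1 held 515 UMIs in 266 cells (61.1%), H2-Eb1 358 UMIs in 204 cells (46.9%), and Cd74 591 UMIs in 263 cells (60.5%). Most members showed more than 1 of the genes, since 198 cells had 2 of the 4, 135 had 3 and 46 had all 4, while 56 reached the threshold through 1 gene. Both chains of I-A, H2-Aa and H2-Ab1, were detected in 181 of the 435 cells. Cd74 was not detected in 172 positive cells, and 11 positive cells held Cd74 and none of the 3 H2 chains. H2-Aa lies at chromosome 17, 34282744 to 34287823, H2-Ab1 at 34257689 to 34269419 and H2-Eb1 at 34305867 to 34316674 of mm10, within the same gene cluster, and Cd74 at chromosome 18, 60803848 to 60812652.

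Class II counts per cell were low. The median positive cell held 4 UMIs of the 4 genes and the highest held 50, with 279 cells at 3 or 4 UMIs, 131 at 5 to 9, 20 at 10 to 19 and 5 at 20 or more. Just inside the threshold stood 175 cells with exactly 3 UMIs, with a median of 2116 UMIs of all genes, and just outside it 354 cells with exactly 2, with a median of 1818.5 (rule values, no test). Positive cells held 56.7% of the 3754 class II UMIs of all kept cells. The 60 wells listed as empty held 0 class II UMIs among 801 UMIs of all genes. Kept cells held 359.7 class II UMIs per 1000000 UMIs, so 801 UMIs were likely to hold 0 at that level too. This count is therefore no check on transcripts passing between wells, which was not tested. Deeper cells passed the threshold more easily: the median depth was 2499 UMIs in positive cells, 1755 in cells with 1 or 2 class II UMIs and 1416 in zero cells. Each positive cell was therefore set against up to 3 zero cells of its library nearest in depth, 1245 in all. Depth did not become equal, since the median without the rule genes was 2495 UMIs in positive cells and 1998 in matched zero cells, with the gap in libraries 1 and 3 to 8. A tighter match, added after the data were seen, paired 413 positive cells with 413 zero cells within 10% of their depth.

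The share of positive cells ranged from 2.66% to 19.6% over the libraries, with a median of 6.13%. The lowest share was 9 of 338 cells in library 10 (Wilson 95% interval 1.41% to 4.98%) and the highest was 61 of 312 cells in library 8 (15.5% to 24.3%). Libraries 1 to 8 lay at 7.03% to 19.6% and libraries 9 to 16 at 2.66% to 5.22%, so the ranges did not overlap. Within sequencing batch SB341 (9 libraries) the shares were 2.66% to 19.6%, and within SB343 (6 libraries) 3.39% to 5.22%. Thinned to 500 UMIs per cell, positive cells made up a median of 0.893% (0% to 3.05%), and the ranges of libraries 1 to 8 (0.299% to 3.05%) and of 9 to 16 (0% to 1.25%) overlapped. These libraries were not labelled as groups, so the gap was not tested.

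**Figure D1:**
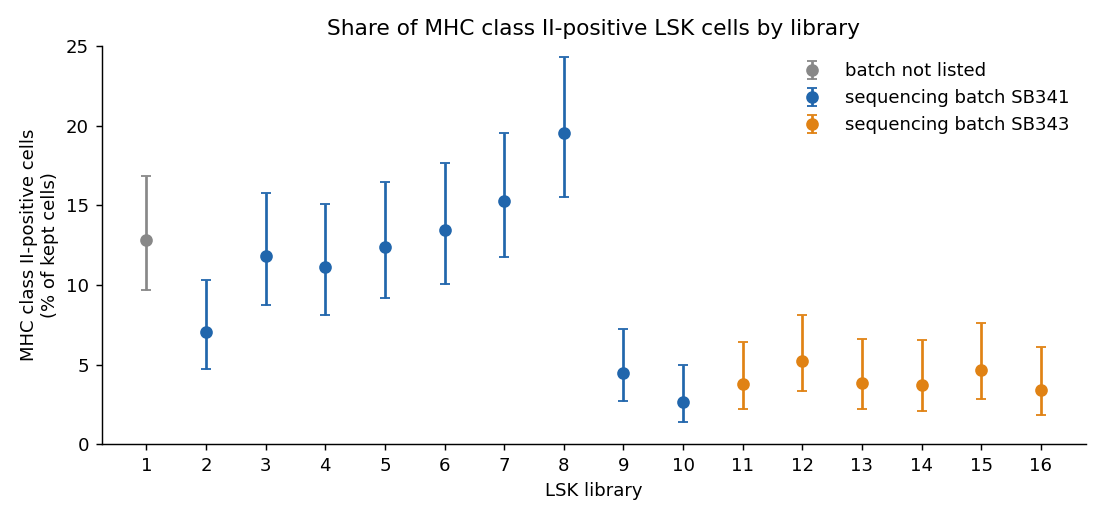
Share of kept LSK cells with at least 3 class II UMIs in each library, in percent, with Wilson 95% intervals that cover counting error only, coloured by sequencing batch. Libraries 1 to 8 sit at 7.03% to 19.6% and libraries 9 to 16 at 2.66% to 5.22%.

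The class II genes were detected together in cells chosen without the gene that was read. All of them belong to the rule, so these values are a description with no test. In 604 cells with at least 2 UMIs of the 3 H2 chains, Cd74 had a median of 254 CPM over 16 libraries (123 to 396 CPM), against a median of 34.4 CPM (0 to 93.2 CPM) in depth-matched cells with 0 chain UMIs. Cd74 was higher in the chain-chosen cells in 16 of 16 libraries, and the ranges did not overlap. The mean log2 ratio was 3.04 ± 1.35 (SD, n = 16) with a prior of 0.5 UMI and 2.68 with a prior of 2 UMIs, since few Cd74 UMIs lay in the cells with 0 chain UMIs. It was 2.47 within SB341 (n = 9) and 4.03 within SB343 (n = 6). By library it was 1.41 to 2.54 in libraries 1 to 8 and 2.97 to 5.03 in libraries 9 to 16. Libraries 9 and 10, which belong to SB341, were at 4.69 and 5.03. In the matched cells with 0 chain UMIs, Cd74 was at 49.3 to 93.2 CPM in libraries 1 to 8 and at 0 to 19.6 CPM in libraries 9 to 16. This split was not tested. In 164 cells with at least 2 Cd74 UMIs, from the 12 libraries with at least 5 such cells, the 3 chains together had 500 to 2774 CPM with a median of 938 CPM. The matched cells with 0 Cd74 UMIs had 35.02 to 366 CPM with a median of 203 CPM. The chains were higher in the Cd74-chosen cells in 12 of 12 libraries (mean log2 ratio 2.37 ± 1.08, SD, n = 12).

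**Figure D2:**
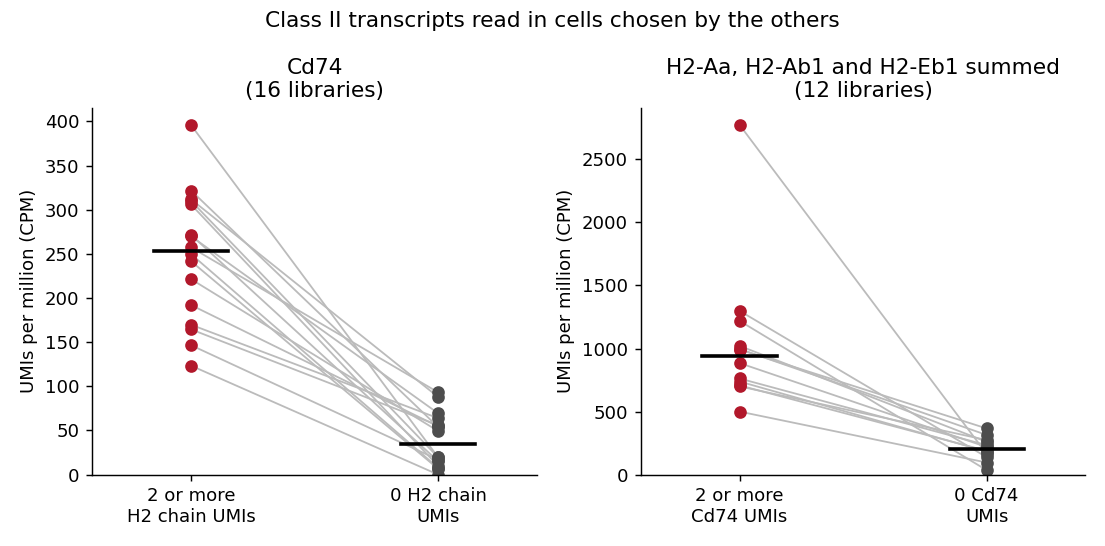
Cd74 in cells chosen by the H2 chains (left, 16 libraries) and the 3 H2 chains summed in cells chosen by Cd74 (right, 12 libraries), in CPM. Each point is the sum of 1 library, grey lines join the same library and black bars are medians, and every line falls towards the cells with 0 UMIs.

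The members held transcripts of both gate genes of LSK cells. Kit, the receptor used to sort, stood at 178 CPM in positive cells and 166 CPM in matched zero cells, with Kit UMIs in 154 of the 435 positive cells. Of the marker genes of mature cells, some held 0 UMIs in positive cells. Among them were the B cell genes Ms4a1, Cd79a and Pax5, the dendritic cell genes Xcr1, Clec9a, Itgax, Zbtb46 and Siglech and the T cell genes Cd3e and Cd3d. Of these genes Itgax had 6 UMIs and Zbtb46 had 2 in matched zero cells, and the others held 0 there too. Cd79b, a B cell receptor component, stood at 41.8 CPM in positive cells and 41.2 CPM in zero cells. Id2, a regulator of dendritic and innate lymphoid cells, had 29 UMIs in positive cells, 17 of them in 1 cell, and 15 in matched zero cells. In all, 10 of 15 mature B cell genes, 9 of 22 dendritic cell genes, 6 of 15 T, NK and innate lymphoid genes and 2 of 16 macrophage and mature myeloid genes were at 0. The summed mature B cell list ranged from 19.997 to 149 CPM in positive cells and from 25.97 to 105 CPM in matched zero cells. The macrophage list ranged from 140 to 453 CPM in positive cells and from 77.0 to 431 CPM in zero cells, and the dendritic cell list from 445 to 1458 CPM in positive cells and from 478 to 910 CPM in zero cells. The T, NK and innate lymphoid list ranged from 21.3 to 125 CPM in positive cells and from 0 to 144 CPM in zero cells. The ranges of all 4 lists overlapped between the classes. Cst3 made up most of the dendritic cell list with 624 of its 863 UMIs in positive cells. Cells in which no class II UMI was captured also held Cst3, with a median of 459 CPM in positive cells and 461 CPM in zero cells.

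The cells with the most class II transcripts differed in their other leading genes. The 5 cells with at least 20 class II UMIs came from libraries 8, 11, 12 and 13 and held 26, 33, 50, 22 and 39 such UMIs. The cell with 50, in library 12, held 17 UMIs of Id2, 11 of Il2rb, 5 of Klrk1, 5 of Cxcr6 and 4 of Ncr1, and the cell with 33, in library 11, held 7 UMIs of Xcl1 and 4 of Ncr1. Ncr1 encodes NKp46, a receptor of NK cells and innate lymphoid cells, Il2rb and Klrk1 encode receptors of the same cells, and Xcl1 encodes a chemokine they make. These 8 Ncr1 UMIs were the only ones in positive cells, and matched zero cells held 0. The cell with 22, also in library 12, held 38 UMIs of Cst3 and 4 each of Wdfy4 and Napsa. Wdfy4 acts in cross-presentation by dendritic cells, and Napsa is an aspartic protease. The cell with 39, in library 13, held 5 UMIs of H2-DMb1, 4 of Mpeg1, 7 of Ighm, 24 of the lymphoid priming list, 42 of the neutrophil and monocyte progenitor list and 58 of the interferon response list, among 8557 UMIs in all. Kit held 0 UMIs in this cell and in the cell with 22, and 1 or 2 in the other 3. The cell with 26, in library 8, stood out by H2-Eb1, with 13 of its 26 class II UMIs. The other genes of these cells are given as single cells, and the test over all genes below was repeated without all 5.

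Over all genes, positive cells differed from depth-matched zero cells in few transcripts, and the genes higher in them included 3 of MHC class I, 2 of the interferon response list and Ly6a. UMIs were summed per library and class and tested with edgeR's quasi-likelihood test with the library as a block and Benjamini-Hochberg adjustment at 0.05. Of 1660 genes tested, 21 passed (1.27%), of which 9 were higher (0.542%) and 12 lower (0.723%) in positive cells, and 154 (9.28%) had an unadjusted p under 0.05. The median log2 fold change of all genes tested was -0.01. The rule chose the cells by 4 genes and thereby also by whatever varies with them and with depth, so these p-values measure the spread between libraries, which may share mice. In the tighter depth match, 656 genes could be tested and 11 passed, 7 higher and 4 lower, and 5 of the 21 were among them: Ly6a, B2m, Ly6e, Mpo and mt-Nd1. The zero cells of different comparisons overlap.

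Ly6a, which encodes the stem cell antigen Sca-1 used in the gate and is induced by interferon, ranged from 240 to 679 CPM with a median of 326 CPM in positive cells, against 117 to 302 CPM with a median of 202 CPM in zero cells. It was higher in positive cells in 16 of 16 libraries, although the ranges overlapped. The log2 fold change was 0.76 ± 0.13 (SE; adjusted p = 6.51e-05), and 0.87 in the tighter match (adjusted p = 0.000196). Within SB341 it was 0.46 (adjusted p = 0.274) and within SB343 1.19 (adjusted p = 0.00347). The difference between batches was not tested. Positive cells with Cd74 held 1.87 times the Ly6a UMIs expected from the zero cells of their libraries, and positive cells without Cd74 1.27 times (exact Poisson 95% intervals 1.67 to 2.10 and 1.07 to 1.51, counting error only). For Gbp3 the ratio was 1.46 with Cd74 and 2.01 without it, and for Mpo 0.619 and 0.627, and none of these pairs was tested.

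Transcription factors of the class II genes were mostly too rare to test. Jak1, a kinase of interferon receptors (0.17, adjusted p = 0.808), and Nfya, a subunit of NF-Y (-0.04, adjusted p = 0.973), did not pass. Ciita, at chromosome 16, was rare: it had 22 UMIs in 17 positive cells and 18 UMIs in 10 matched zero cells, which is 17.01 CPM in positive cells and 6.13 CPM in zero cells. Of these 22 UMIs, 19 lay in positive cells with Cd74, 4.63 times those expected (exact Poisson 95% interval 2.79 to 7.23), and 3 in positive cells without Cd74, 0.878 times (0.181 to 2.56). These intervals cover counting error only, Cd74 is a rule gene, and no test was made. Irf4 held 0 UMIs in positive cells, and Irf8 stood at 48.7 CPM in positive cells and 57.2 CPM in zero cells.

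MHC class I genes present cytosolic peptides to CD8+ T cells. Of 19 genes on the class I and antigen processing list, 13 were tested, 3 rose (B2m, H2-Q7 and H2-T23) and none fell, 11 of the 13 lay above 0, and the median log2 fold change was 0.20. Over all genes tested 9 of 1660 rose (0.542%), 759 of 1660 lay above 0 and the median was -0.01. B2m, the light chain of class I molecules, ranged from 4431 to 6865 CPM with a median of 5127 CPM in positive cells, against 3849 to 5089 CPM with a median of 4396 CPM in zero cells, and was higher in 14 of 16 libraries. Its log2 fold change was 0.20 ± 0.04 (SE; adjusted p = 0.00141) and 0.28 in the tighter match (adjusted p = 7.24e-05), 0.12 within SB341 (adjusted p = 0.479) and 0.37 within SB343 (adjusted p = 0.00486). Against all zero cells instead of matched ones it was 0.10 (adjusted p = 0.298). H2-T23, which encodes the non-classical class I molecule Qa-1, ranged from 129 to 596 CPM with a median of 204 CPM in positive cells and from 52.4 to 217 CPM with a median of 137 CPM in zero cells. It rose by 0.64 ± 0.16 (SE; adjusted p = 0.0263), with 0.44 within SB341 (adjusted p = 0.609) and 1.18 within SB343 (adjusted p = 0.0105). H2-Q7, a Qa-2 gene whose close copies could share its reads, had medians of 273 CPM in positive cells and 218 CPM in zero cells and a log2 fold change of 0.46 ± 0.12 (SE; adjusted p = 0.0263). It was 0.38 within SB341 (adjusted p = 0.469) and 0.50 within SB343 (adjusted p = 0.845). In the tighter match H2-Q7 was at 0.49 and was not called (adjusted p = 0.101), and H2-T23 was not tested there. Without library 9, 10, 11, 12, 13 or 15 H2-T23 missed the threshold, and without library 1, 3, 8, 9 or 11 H2-Q7 did. The classical heavy chains did not pass: H2-K1 had medians of 1284 CPM in positive cells and 1208 CPM in zero cells (log2 fold change 0.12, adjusted p = 0.441) and H2-D1 a log2 fold change of 0.09 (adjusted p = 0.782). The immunoproteasome genes Psmb8 (0.07), Psmb9 (-0.02) and Psmb10 (0.35), the activator genes Psme1 (0.25) and Psme2 (0.32) and the peptide loading genes Tap1 (-0.10) and Tapbp (0.30) did not pass either.

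The interferon response list had 31 genes, 11 of them tested. Ly6e and Gbp3 rose, none fell, 9 of the 11 lay above 0 (759 of 1660 over all genes), and the median log2 fold change was 0.31 (-0.01 over all genes). Ly6e, an interferon-induced surface protein of the Ly6 family, ranged from 663 to 2209 CPM with a median of 1330 CPM in positive cells, against 792 to 1403 CPM with a median of 1044 CPM in zero cells (log2 fold change 0.27 ± 0.06, SE; adjusted p = 0.00529). It was 0.27 in the tighter match (adjusted p = 0.0108), 0.18 within SB341 (adjusted p = 0.566) and 0.48 within SB343 (adjusted p = 0.00494). Gbp3, an interferon-induced guanylate-binding protein, had medians of 119 CPM in positive cells and 75.2 CPM in zero cells and was higher in 11 of 16 libraries (0.75 ± 0.21, SE; adjusted p = 0.0416). Of the 16 fits that left out a library, 10 could test it, and it was not called in those without library 2, 9, 10, 12, 15 or 16, and in SB341 it was 0.76 (adjusted p = 0.338). Gbp3 was not tested in the tighter match. Ifitm3, a restriction factor of viral entry, had medians of 560 CPM in positive cells and 410 CPM in zero cells (0.32, adjusted p = 0.0638), and 0.44 in the tighter match (adjusted p = 0.0324). The summed list was higher in positive cells in 16 of 16 libraries, at 4069 to 5971 CPM, against 3239 to 3990 CPM in zero cells, so its ranges did not overlap. Gbp2, too low for the test, held 125 UMIs in positive cells, 1.92 times those expected from zero cells (exact Poisson 95% interval 1.60 to 2.29).

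Lower in positive cells was Mpo, the myeloperoxidase of neutrophil and monocyte granules and the gene with the smallest p of all. It ranged from 61.9 to 872 CPM with a median of 312 CPM in positive cells, against 215 to 1134 CPM with a median of 523 CPM in zero cells, and was lower in 14 of 16 libraries. It fell by 0.72 on the log2 scale (SE 0.11; adjusted p = 2.56e-05), with -0.83 in the tighter match (adjusted p = 4.1e-06), -0.67 within SB341 (adjusted p = 0.0216) and -0.68 within SB343 (adjusted p = 0.0105). Of the 17 genes of the neutrophil and monocyte progenitor list, 6 were tested, Mpo fell and none rose, and the median log2 fold change was -0.35. Over all genes tested 12 of 1660 fell (0.723%) and the median was -0.01. Prtn3, the granule protease proteinase 3, had medians of 187 CPM in positive cells and 269 CPM in zero cells (-0.44, adjusted p = 0.0786, and -0.61 with adjusted p = 0.0134 in the tighter match). Plac8 (0.03) and Srgn (-0.17) did not pass. When every cell with a UMI of the mature B cell, macrophage or T, NK and innate lymphoid lists was left out of both classes, 219 positive cells in 12 libraries remained and 0 of 799 genes passed, with 53 at an unadjusted p under 0.05. Mpo was then at -0.27 (adjusted p = 0.777) and Ly6a at 0.68 (adjusted p = 0.104). The filter did not pick mature cells alone, since both classes held some of its genes at like levels. Lyz2, on the macrophage list, had UMIs in 139 positive cells and stood at 163 CPM in positive cells and 159 CPM in matched zero cells. Whether the lost calls go back to mature cells or to the smaller number of cells was not tested.

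**Figure D3:**
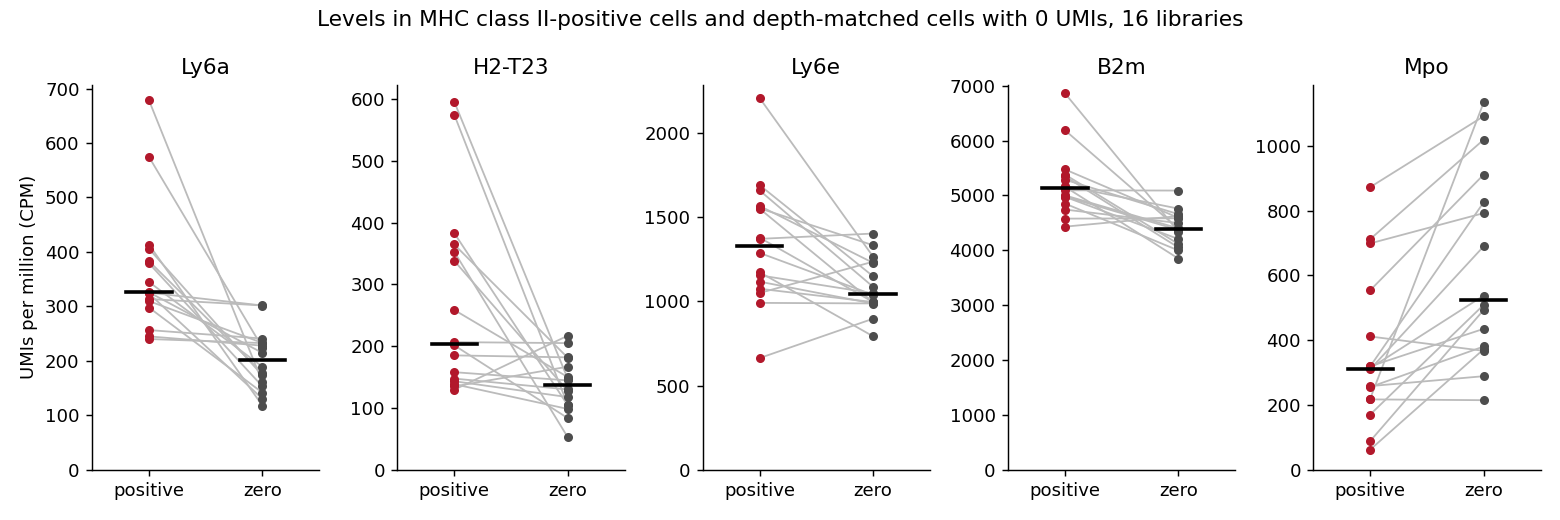
Ly6a, H2-T23, Ly6e, B2m and Mpo in CPM, 1 point per library and class over 16 libraries, with positive cells left and depth-matched zero cells right, lines joining a library and black bars at the medians. Ly6a is higher in positive cells in 16 of 16 libraries, and Mpo is lower in 14 of 16.

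The loading machinery of class II was mostly too rare to test. H2-DMa and H2-DMb1 encode the exchange factor H2-DM, which removes the remnant of the invariant chain from the groove, and H2-Oa and H2-Ob encode H2-O, which restrains H2-DM. Of 17 genes on the loading and lysosomal processing list, 3 were tested, none passed, and their median log2 fold change was 0.23. H2-DMa had medians of 168 CPM in positive cells and 144 CPM in zero cells (0.29 ± 0.15, SE; adjusted p = 0.565), and Ctsd, a lysosomal protease, of 136 CPM in positive cells and 111 CPM in zero cells (0.23, adjusted p = 0.748). H2-DMb1 was too low for the test, with 77 UMIs in 59 positive cells and 87 UMIs in 68 matched zero cells, which is 59.5 CPM in positive cells and 29.6 CPM in zero cells. H2-Ob stood at 51.8 CPM in positive cells and 52.1 CPM in zero cells, and H2-Oa at 25.5 CPM in positive cells and 19.1 CPM in zero cells. Ifi30, a lysosomal thiol reductase, stood at 25.5 CPM in positive cells and 6.13 CPM in zero cells, and Ctsb, a lysosomal protease, at 68.8 CPM in positive cells and 63.7 CPM in zero cells. The costimulatory genes Cd80 and Cd40 held 0 UMIs in positive cells, and Cd86 6 UMIs.

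Lymphoid priming genes mark progenitors that turn towards B and T cells. Of 22 genes, 12 were tested and none passed, 10 of the 12 lay above 0 (759 of 1660 over all genes), and the median log2 fold change was 0.30 (-0.01 over all genes). Ighm, whose sterile transcript precedes rearrangement, had medians of 276 CPM in positive cells and 225 CPM in zero cells (0.46 ± 0.13, SE; adjusted p = 0.0526). Flt3, the cytokine receptor of lymphoid-primed progenitors, had medians of 178 CPM in positive cells and 107 CPM in zero cells (0.55 ± 0.17, SE; adjusted p = 0.0805), and Dntt, the terminal transferase of rearranging lymphocytes, 589 CPM in positive cells and 389 CPM in zero cells (0.46 ± 0.15, SE; adjusted p = 0.102). With 1 library left out, Ighm was not called in 12 of 16 fits (adjusted p = 0.0118 to 0.167). Flt3 was not called in 15 of 16 (0.0192 to 0.205) and Dntt in 14 of 16 (0.0128 to 0.413). In the tighter match Ighm was at 0.44 (adjusted p = 0.348) and Dntt at 0.36 (adjusted p = 0.659), and Flt3 was not tested. Against all zero cells, which are less deep, Ighm, Flt3 and Dntt were called at 0.54, 0.63 and 0.47 (adjusted p = 0.00526, 0.0176 and 0.0248). Of the stem cell list, 4 of 32 genes were tested and Ly6a alone passed, with a median of 0.04, and none of the 7 tested megakaryocyte and erythroid genes passed (median -0.07). None of the 17 G1 to S phase genes tested and none of the 16 G2 to M phase genes tested passed (medians 0.10 and 0.06). No gene of the Regnase and target list was high enough to test, and Zc3h12a, which encodes Regnase-1, held 5 UMIs in positive cells (3.87 CPM) and 32 in matched zero cells (10.9 CPM). Zc3h12c, which encodes Regnase-3, held 10 UMIs in positive cells (7.73 CPM) and 17 in matched zero cells (5.79 CPM).

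The other genes that passed had smaller values in the tighter match. Tuba1b, an alpha tubulin with close copies, was at 1478 CPM (median) in positive cells and 1187 CPM in zero cells (0.30 ± 0.05, SE; adjusted p = 4.9e-05), but at 0.10 in the tighter match (adjusted p = 0.784). Hspa5, the chaperone of the endoplasmic reticulum, was at 477 CPM in positive cells and 357 CPM in zero cells (0.34 ± 0.09, SE; adjusted p = 0.0416), and at 0.30 in the tighter match (adjusted p = 0.38). Of 15 mitochondrially encoded genes tested, 5 fell, mt-Nd1 (-0.24), mt-Tt (-0.22), mt-Nd2 (-0.21), mt-Nd4 (-0.18) and mt-Cytb (-0.17), none rose, and the median was -0.16. Over all genes tested 12 of 1660 fell (0.723%) and the median was -0.01. The gene mt-Tt begins at base 15289, directly after the end of mt-Cytb at 15288, so these genes could share reads. In the tighter match mt-Nd1 was at -0.19 (adjusted p = 0.0134), mt-Nd2 at -0.12, mt-Tt at -0.10, mt-Cytb at -0.09 and mt-Nd4 at -0.04, the last 4 not called. The mitochondrial share of UMIs per cell had a median over libraries of 10.3% in positive cells and 10.2% in matched zero cells. The mean difference was -0.31 ± 0.71 percentage points (SD, n = 16; 2-sided exact paired permutation p = 0.0988, adjusted p = 0.198 over 2 such tests). Vim (-0.30, adjusted p = 0.0301), an intermediate filament, Rpl4 (-0.14, adjusted p = 0.0339), Rpl39-ps (-0.18) and Snora69 (-0.22), which lies inside Rpl39, also fell, as did the gene models Gm28437 (-0.22) and Gm14586 (-0.20), and none of these 6 passed in the tighter match. Rpl4 was 1 of 66 tested ribosomal protein genes to fall, with none rising (12 of 1660 fell over all genes). Hspa5 missed the threshold without library 1, 4, 7, 8, 11, 12, 13, 14 or 16, Vim without library 2, 3, 4, 5, 7, 8, 12, 14 or 16, and Gm14586 without library 5, 6, 11, 14 or 15. Rpl39-ps missed it without library 1, 3, 4, 5, 6, 10, 11, 14 or 16, and Rpl4 without library 2, 3, 4, 5, 7, 10, 14 or 15. With DESeq2, Vim, Rpl4 and Gm28437 (adjusted p = 0.057 each) and mt-Nd4 and Rpl39-ps (0.0746 each) did not pass. H2-T23 and Gbp3 were given no adjusted p-value by DESeq2, so they were not called there either. At 500 UMIs per cell, positive cells held 360 genes and matched zero cells 357 genes (medians over libraries; mean difference 2.94 ± 10.4, SD, n = 16; exact paired permutation p = 0.277, adjusted p = 0.277).

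**Figure D4:**
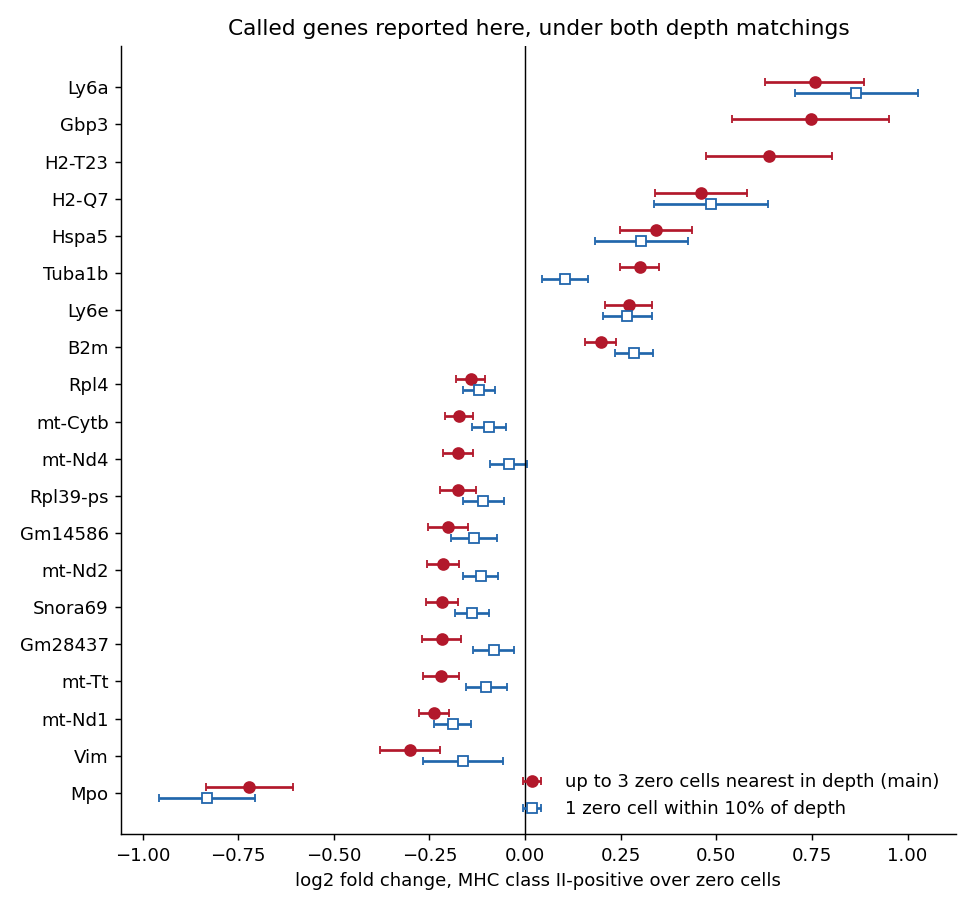
Log2 fold change with SE of the called genes reported here, positive over zero cells, in the main match (circles) and with 1 zero cell within 10% of depth (squares; no square where too few UMIs were left). Ly6a (0.76 and 0.87), Ly6e (0.27 and 0.27), B2m (0.20 and 0.28) and Mpo (-0.72 and -0.83) are called in both matches, as is mt-Nd1. H2-Q7 (0.46 and 0.49) and Hspa5 (0.34 and 0.30) are called in the main match only. Tuba1b and the mitochondrial genes lie nearer to 0 in the tighter match.

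Without the 5 cells of at least 20 class II UMIs, 13 of 1522 genes passed, 4 higher and 9 lower. Ly6a (0.68, adjusted p = 0.000945), B2m (0.18, adjusted p = 0.00456), Tuba1b and Mpo (-0.68, adjusted p = 0.000104) remained, and Ly6e (0.22), H2-T23 (0.58) and H2-Q7 (0.42) had an adjusted p of 0.0632 each.

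Read by the number of class II UMIs, the differences of Ly6a, Mpo and H2-DMb1 were not confined to the highest cells, while that of B2m did not grow steadily. Cells with 3 or 4 class II UMIs held 1.61 times the expected Ly6a UMIs (exact Poisson 95% interval 1.41 to 1.82), and cells with 5 to 9 held 1.504 times (1.25 to 1.79). Cells with 1 or 2 held 1.146 times (1.06 to 1.24), the 20 cells with 10 to 19 held 1.32 times (0.906 to 1.85) and the 5 cells with 20 or more 6.65 times (4.42 to 9.61). Mpo was at 0.925 at 1 or 2 (0.880 to 0.972), 0.586 at 3 or 4 (0.511 to 0.669), 0.732 at 5 to 9 (0.623 to 0.853), 0.628 at 10 to 19 (0.429 to 0.886) and 0.0950 at 20 or more (0.0115 to 0.343). H2-DMb1 was at 1.73 in cells with 1 or 2 class II UMIs (1.46 to 2.03), 1.49 at 3 or 4 (1.02 to 2.09), 2.80 at 5 to 9 (1.90 to 3.97), 1.55 at 10 to 19 (0.569 to 3.38) and 11.9 at 20 or more (4.79 to 24.5). B2m was at 1.074 at 1 or 2 (1.056 to 1.092), 1.152 at 3 or 4 (1.116 to 1.189) and 1.070 at 5 to 9 (1.024 to 1.118). It was at 0.943 at 10 to 19 (0.860 to 1.032) and 1.730 at 20 or more (1.486 to 2.003). The intervals cover counting error of the observed UMIs only. The median depth differed between these classes, at 1755, 2255, 2632, 5444 and 2771 UMIs, and no test was made of these ratios. In edgeR's test at 5 or more class II UMIs, B2m (0.0973, adjusted p = 0.777) and Ly6a (0.66, adjusted p = 0.109) did not pass. Mpo (-0.68, adjusted p = 0.0129) and Ly6e (0.41, adjusted p = 0.0119) passed there.

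**Figure D5:**
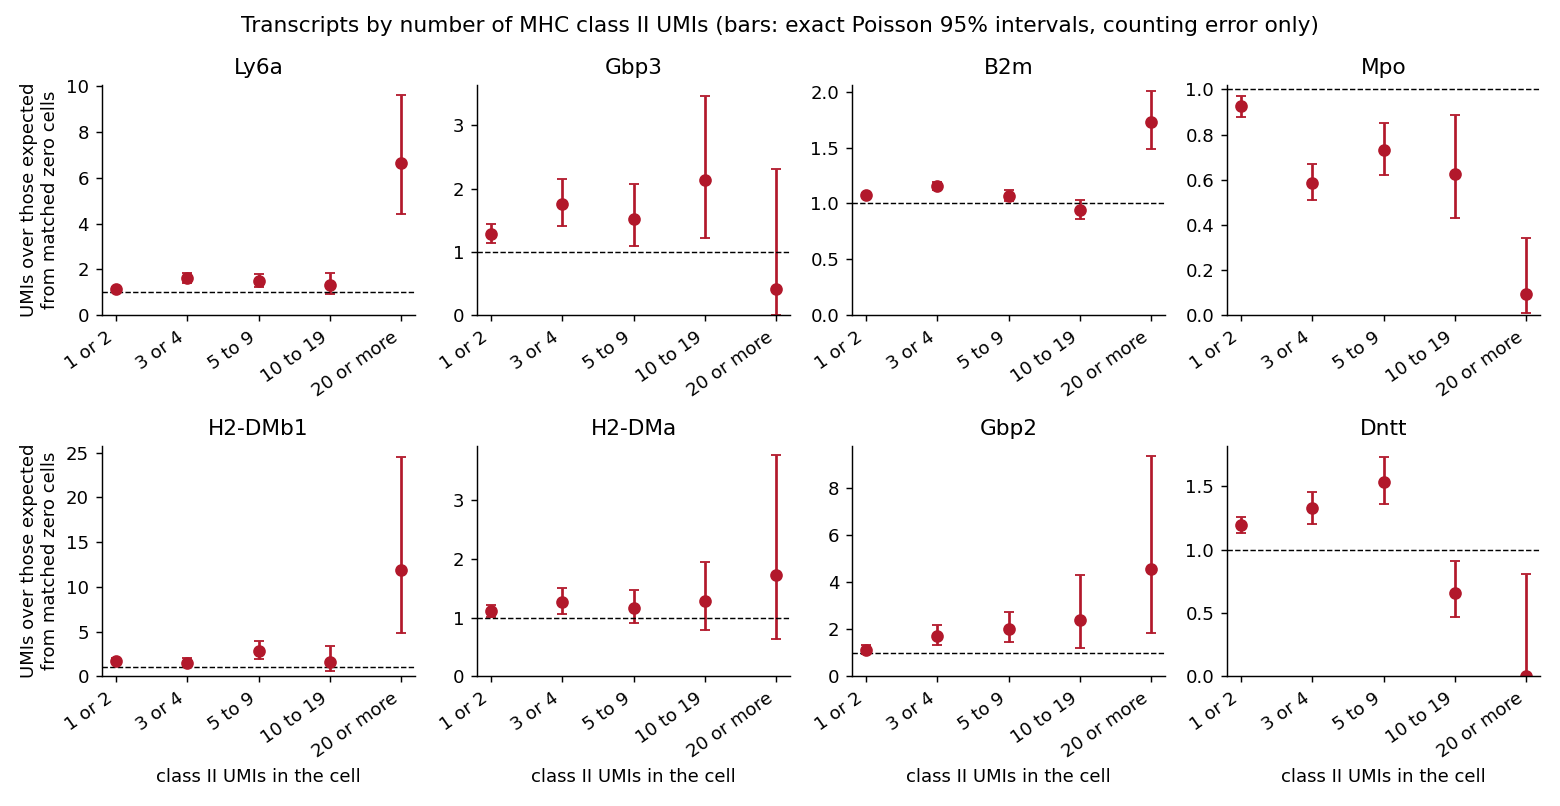
UMIs of 8 genes over those expected from the matched zero cells of the same libraries, by the number of class II UMIs in the cell, with exact Poisson 95% intervals that cover counting error only and a dashed line at 1. Mpo lies below 1 in all 5 classes, and Ly6a lies above 1 in all 5.

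The 1273 cells with 1 or 2 class II UMIs, which are not members, differed little from their own depth-matched zero cells. Of 3862 genes tested, 3 passed (0.0777%), 2 higher (0.0518%) and 1 lower (0.0259%), and 192 (4.97%) had an unadjusted p under 0.05. Hist1h2ao, a histone gene (0.26, adjusted p = 0.0289), and Tuba1b (0.17, adjusted p = 0.0334) were higher, and Snord55 (-0.13, adjusted p = 0.0289) was lower. No gene passed edgeR's test when any 1 of libraries 1 to 8 was left out, with 170 to 192 genes at an unadjusted p under 0.05, and 0 passed with DESeq2 over all 16 libraries (84 at an unadjusted p under 0.05). The genes called in positive cells had smaller values here: Ly6a was at 0.21 ± 0.10, B2m at 0.05 ± 0.02 and Mpo at -0.04 ± 0.06 (SE), and none of these 3 passed. This comparison shares zero cells with that of the positive cells, so the values stand side by side only.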

How the data were processed

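The authors deposited UMI counts per gene and well, not normalized, for 16 libraries of 384 wells, and a table of wells. Per the labels' protocols the libraries are MARS-seq 3' libraries, and mm10 and bcl2fastq 2.15.0.4 are named in the submitters' processing notes. For the aligner, counting tool, strand use and annotation, nothing is given in the sources used here. Wells listed as empty, with under 500 UMIs or with at least 20% mitochondrial UMIs were left out. Library 1 is absent from the well table and was kept. Libraries held 521435 to 822534 UMIs, and no doublet caller was run on singly sorted wells. The same 384 well barcodes recur in each listed library by plate layout.

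For each library, UMIs of each class with 5 or more cells were added up without the 4 rule genes and spike-ins. Tests of these counts used R 4.3.3 with edgeR 4.0.16 (quasi-likelihood F test, TMM, filterByExpr, library as a block, since both sums of a pair come from the same plates). CPM is UMIs per 1000000 UMIs of a sum. Ratios of CPM used a prior of 0.5 UMI. The script was tested on simulated data. Replicates are libraries and cells are not. Values of rule genes, also in cells chosen by the other rule genes, are given without the permutation tests planned for them. Named were the 10 largest called changes each way with at least 20 CPM and the same direction in 75% of libraries, called list members, and the 2 most abundant members of each list. Ciita, H2-DMb1, H2-D1, Gbp2, Ighm, Flt3, Prtn3, the 5 single cells and the untested or uncalled list members given beside them were chosen after their values were seen. The members and all lists were chosen with earlier results of these data known. Coordinates come from GENCODE M21 on GRCm38. Alternatives covered matching, normalization, filters, thresholds, batches, thinning and libraries left out. One called gene and one marker gene are not reported here, and the counts include them.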

Additional observations from a re-analysis of the deposited data

Results flagged for a closer look

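The 86 wells set aside for at least 20% mitochondrial UMIs entered no comparison. Of these, 7 held at least 3 class II UMIs, 8.14% (Wilson 95% interval 4.00% to 15.9%), above the 3.49% that a count of 0 would allow, which is no test. Kept cells were at 8.44%. The set-aside wells had a median of 916.5 UMIs, and class II genes stood at 659 CPM in them and at 359.7 CPM in kept cells.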

How the results depend on the processing

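Against 21 genes called in positive cells, 46 were called with all zero cells, 122 without a filter on low counts (2 higher and 120 lower; the median log2 fold change of the 1660 genes moved to -0.20), 10 within SB341 (1 higher and 9 lower), 7 within SB343 (6 higher and 1 lower), 11 with 1 zero cell within 10% of depth, 2 at 5 or more class II UMIs, 1 after thinning to 500 UMIs (121 genes tested), 13 without the cells of 20 or more and 0 without cells holding a UMI of the mature cell lists (53 at an unadjusted p under 0.05; no other tool was run on that set). In the thinned fit the 167 cells with 2 or more class II UMIs left after thinning were chosen, a lower threshold than the 3 of the rule. Without the replicate block 2 were called, with DESeq2 15 (8 higher and 7 lower; 13 shared) and with RLE size factors 23 (13 higher and 10 lower; 19 shared). RLE ended the calls of Rpl39-ps and Rpl4. Leaving out 1 library gave 17 to 25. For cells with 1 or 2 class II UMIs the 3 calls became 22 without the filter, 1 in the tighter match, and 0 with DESeq2 (84 at an unadjusted p under 0.05), without the replicate block (94), at a minimum of 1000 UMIs (161) or within SB343 (174), and 0 to 4 with 1 library left out (0 without any 1 of libraries 1 to 8). Of the named genes, Tuba1b (-0.24), mt-Tt (0.079), mt-Cytb (0.0097) and Rpl4 (0.026) changed sign in the thinned fit, at 2 or more class II UMIs, and mt-Nd4 (0.074) within SB343. Against all zero cells the mitochondrial share differed by -0.64 points (permutation p = 0.00345) and genes per cell by 8.69 (permutation p = 0.00134). The log2 ratio of the H2 chains in Cd74-chosen cells was 3.72 within SB343 (3 libraries) and 3.18 in library 9, which belongs to SB341. At 2 or more class II UMIs the median share of cells was 12.5%. The causes were not tested. Few class II UMIs per cell, unequal depth and 9 to 61 positive cells per library limit what these data can resolve.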

Other observations

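Over all kept cells, and in CPM, each of the 4 class II genes lay in separate ranges in libraries 1 to 8 and libraries 9 to 16, which the labels do not set apart as groups. H2-Aa was at 119 to 223 CPM in libraries 1 to 8 and at 46.8 to 99.2 CPM in libraries 9 to 16. H2-Ab1 was at 98.0 to 175 CPM in libraries 1 to 8 and at 62.0 to 95.1 CPM in libraries 9 to 16. H2-Eb1 was at 61.1 to 111 CPM in libraries 1 to 8 and at 25.3 to 48.1 CPM in libraries 9 to 16. Cd74 was at 95.6 to 156 CPM in libraries 1 to 8 and at 34.7 to 67.9 CPM in libraries 9 to 16. Libraries 9 and 10 belong to sequencing batch SB341 like libraries 2 to 8, and libraries 11 to 16 make up SB343. Of the 5 cells with at least 20 class II UMIs, 4 came from libraries 11 to 13.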
